A study of Rattus norvegicus with 16 samples.

Results

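The microRNA cluster of mir-96, mir-182 and mir-183 was followed through the small RNA of rat organs. The members were the reads placed on the hairpins rno-mir-96, rno-mir-182 and rno-mir-183, selected by hairpin name. They were 3 of the 392 hairpins in the libraries and held 5 of the 712 hairpin arms with a read. Both arms of mir-96 and mir-183 and a single arm of mir-182 were read. The RefSeq hairpin of mir-182 has only 62 nt, with the annotated arm at positions 35 to 59. Those of mir-96 and mir-183 have 106 and 110 nt. A second arm of mir-182 may lie outside its short hairpin, so its lack of reads does not show that it is absent. Whole brain, heart, kidney, liver, spleen and testis came from adult male rats, 1 rat of the BN-Lx strain and 1 of the SHR strain, and 4 further whole livers came from another pair of rats of each strain. This gave 16 libraries, namely 12 of the six-tissue set and 4 further livers, with 3 livers of each strain in all. BN-Lx is an inbred line on the Brown Norway background and SHR is the spontaneously hypertensive rat, and no animal was treated. In the tissues other than liver a strain was thus represented by 1 animal, so that the strain and the individual cannot be told apart there.

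The 3 miRNAs are transcribed together and are best known from sensory organs, where they are abundant in hair cells, photoreceptors and olfactory neurons, and changes in the seed of miR-96 are a cause of inherited deafness. The seed is the stretch near the 5′ end of a mature miRNA through which most targets are recognised. None of the organs sequenced is a sensory organ. In whole organs, fewer cells of a type and less RNA per cell cannot be told apart.

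The mature sequences are shown because the 5p arms share most of their seed. They are the RefSeq entries on assembly GRCr8, 5′ to 3′, with bases 2 to 8 in capitals, and all 5 arms were matched by name.
mir-96-5p: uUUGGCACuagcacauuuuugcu
mir-182: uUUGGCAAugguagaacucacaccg
mir-183-5p: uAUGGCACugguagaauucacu
mir-96-3p: cAAUCAUGugcagugccaauau
mir-183-3p: uGAAUUACcgaagggccauaa
Counted from the 5′ end and written with the base of the first-named miRNA first, the seed of mir-96-5p differed from that of mir-182 by C8A and from that of mir-183-5p by U2A. The seeds of mir-182 and mir-183-5p differed by U2A and A8C, leaving 5 of 7 bases the same. Over the length they had in common, mir-182 and mir-183-5p shared 18 of 22 bases, whereas mir-96-5p shared 12 of 23 with mir-182. No other rat miRNA of the RefSeq table carried the seed of any of the 5 arms.

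In GRCr8 the 3 hairpins lie on the minus strand of chromosome 4, mir-182 at chr4:59752246-59752307, mir-96 at chr4:59755841-59755946 and mir-183 at chr4:59756044-59756153. Only 97 bp separate mir-96 from mir-183, and 3533 bp separate mir-96 from mir-182. The stretch of 3908 bp holds no protein-coding gene and lies between Nrf1 and Ube2h. The microRNA gene Mir3553, annotated on the other strand at mir-183, was represented by 1 read, in the SHR heart.

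The 3 hairpins collected 5518 reads over the 16 libraries. Library depth was 26880 and 29131 reads in the BN-Lx and SHR testis and 403453 to 1064894 in the rest of the six-tissue set, and it was 1167607 to 3229461 in the further livers. Testis was therefore the least precise tissue, and a count of 0 there allows up to 0.0968 (BN-Lx) and 0.0867 (SHR) of the outlier-corrected mean (ocm), against 0.00772 or less elsewhere. The ocm is the mean read number of known miRNA arms in a library after its 3 most abundant arms are left out, and levels are given as multiples of it, with the limit for 0 set at 3 reads. The organs carried their own markers: the liver miRNA mir-122 summed in liver to 414 and 468 times the ocm for BN-Lx and SHR, the muscle list to 29.5 and 38.2 in heart, and the neuronal list to 68.1 and 101 in brain.

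The cluster was dominated by mir-182. It supplied 78.3% of the reads on the 3 hairpins, mir-183 supplied 20.4% and mir-96 1.27%. Both arms of mir-96, the member tied to deafness, had few reads in every organ. mir-96-5p was read 13 times in the BN-Lx brain and 16 times in the SHR kidney, at most 4 times in any of the other libraries, and not at all in either heart or testis. mir-96-3p was read 6 times in the BN-Lx brain, 5 times in the SHR kidney and 5 times in 1 of the further BN-Lx livers. The SHR brain and the BN-Lx kidney had no read of either arm of mir-96, so that its reads in brain came from BN-Lx and those in kidney from SHR. The 2 mir-96 arms did not pass the expression filter of the tissue and liver comparisons, which kept mir-182, mir-183-5p and mir-183-3p. They are given by their reads, and mir-96-5p was tested only in the later fit of all 16 libraries.

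Across the 6 tissues mir-182 was highest in kidney. In kidney it had 433 reads (0.633 times the ocm) in BN-Lx and 806 reads (0.988) in SHR. In liver of the same rats it had 69 reads (0.177) and 145 reads (0.347), and in spleen 34 reads (0.0404) and 65 reads (0.120). In brain the rats differed widely, with 720 reads (0.512) in BN-Lx and 27 reads (0.0242) in SHR. Heart had 10 reads (0.0221) and 16 reads (0.0223), and each testis had a single read (0.0323 and 0.0289). The means were 0.811 ± 0.251 in kidney, 0.268 ± 0.345 in brain, 0.262 ± 0.120 in liver, 0.0801 ± 0.0562 in spleen, 0.0306 ± 0.00238 in testis and 0.0222 ± 0.000143 in heart (SD, n = 2 rats). Kidney stood above the other tissues in both rats, while the 2 brain values spanned most of the range between kidney and heart.

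mir-183-5p, the main arm of mir-183, followed mir-182 at a lower level. Its reads numbered 70 (0.102 times the ocm) in the BN-Lx and 189 (0.232) in the SHR kidney, and 64 (0.165) and 44 (0.105) in liver. Brain again split, with 312 reads (0.222) in BN-Lx and 11 reads (0.00985) in SHR. Spleen had 5 reads (0.00593) and 9 reads (0.0166), and heart and testis each had 1 read in the BN-Lx and none in the SHR rat. Its order of tissues differed between the rats: in BN-Lx brain was highest, 1.35-fold above liver, and in SHR kidney was highest, 2.20-fold above liver. The minor arm mir-183-3p had 22 and 6 reads in kidney, 45 and 2 in brain and 8 and 3 in liver of BN-Lx and SHR. It had a single read in the spleens and none in heart or testis.

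**Figure D1:**
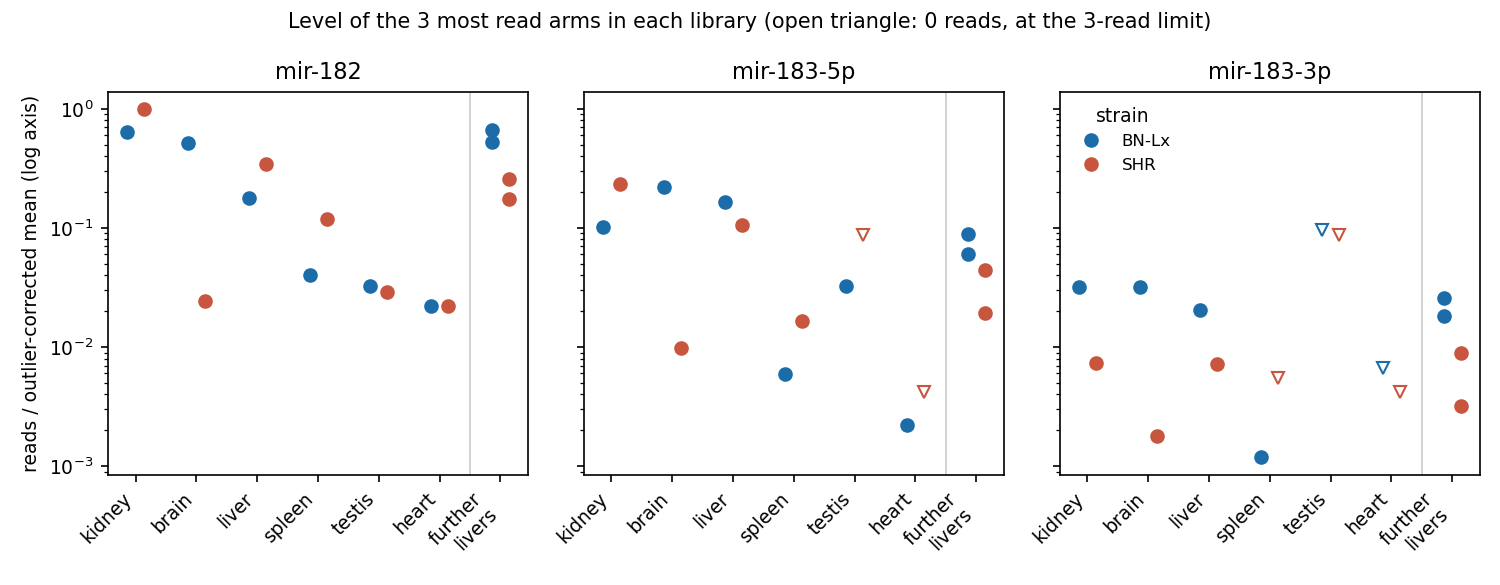
Levels of mir-182, mir-183-5p and mir-183-3p in the six-tissue libraries and the further livers, as multiples of the outlier-corrected mean on a log axis. Each point is 1 library of BN-Lx or SHR. In the six-tissue set the kidneys are the highest tissue for mir-182 at 0.633 and 0.988, and the pair of brain points lies far apart for each arm.

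The tissue differences of the 3 tested arms exceeded the spread between the rats in edgeR's quasi-likelihood test, with strain as a term and Benjamini-Hochberg adjustment over all arms tested. The adjusted p over the 6 tissues was 0.00406 for mir-182, 0.00502 for mir-183-5p and 0.0395 for mir-183-3p. A tissue difference was the rule in these libraries, since 382 of 457 arms tested (83.6%) passed, so the 3 members were not unusual in passing. The mir-183-3p result was lost in 9 of the 12 fits that left out 1 library, with an adjusted p of up to 0.115.

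Against the mean of the other 5 tissues, kidney was higher by 3.56 ± 0.66 on the log2 scale (SE) for mir-182 (edgeR adjusted p 0.00115). mir-182 kept this call in every fit without 1 library (3.08 to 4.33). For mir-183-5p the difference was 3.60 ± 0.82 (edgeR adjusted p 0.00514), and without the SHR kidney it was 2.01 with an edgeR adjusted p of 0.128. mir-183-3p was at 3.92 ± 1.14 (edgeR adjusted p 0.0243), a call lost in 6 of 12 fits without 1 library. The comparison called 17.1% of all arms higher in kidney. These fitted values include tissues with few or no reads and depend on how such tissues are modelled. mir-183-5p was also higher in liver, by 3.02 ± 0.81 (edgeR adjusted p 0.0132), where 14.7% of arms were called higher, and lost this call without either liver (edgeR adjusted p up to 0.105). It was lower in heart (edgeR adjusted p 0.0292), where 8.97% of arms were called lower and where the arm had 1 read. This call was lost without the BN-Lx heart, SHR heart, BN-Lx testis or SHR spleen (edgeR adjusted p up to 1). Brain was not called for mir-182 (0.93 ± 0.83, edgeR adjusted p 0.480) or for mir-183-5p (1.67 ± 0.93, edgeR adjusted p 0.207).

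Pairs of tissues placed kidney and liver above heart. Of 15 pairs, edgeR called 5 for mir-182, 5 for mir-183-5p and 3 for mir-183-3p, in a comparison that called 33.8% of all pairs of all arms. For mir-182, kidney exceeded heart by 4.96 ± 1.14 (edgeR adjusted p 0.00500) and liver exceeded heart by 3.37 ± 1.08 (edgeR adjusted p 0.0300), and spleen minus kidney was -3.32 ± 1.03 (edgeR adjusted p 0.0258). Testis was called below kidney and liver for mir-182 on a total of 2 reads, which put kidney 27.1-fold above testis with a 95% counting interval of 7.49 to 224, and the call against liver was lost with either other scaling. For mir-183-5p, kidney, liver and brain were called above heart and both kidney and liver above spleen. The single heart read put kidney 202-fold above heart, with a counting interval of 35.9 to 8011. mir-183-3p, listed at 0 in heart, was at least 7.28-fold higher in kidney than the limit of 3 reads over both hearts. Of the 13 called pairs, 3 kept their call in every fit without 1 library, namely kidney against heart for mir-182 and kidney and liver against heart for mir-183-5p. Each of the other 10 was lost in between 2 and 12 of the 12 such fits, and DESeq2 did not call the 3 pairs of mir-183-3p (adjusted p up to 0.165).

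The upper part of the order could not be resolved with 1 rat per strain. Kidney and brain were not called different for mir-182 (2.19 ± 1.03, edgeR adjusted p 0.125) or mir-183-5p (1.61 ± 1.15, edgeR adjusted p 0.321), nor were liver and kidney for mir-182 (liver minus kidney -1.59 ± 0.96, edgeR adjusted p 0.236). With the 5-fold rule of the study, by which an arm is tissue-specific when 1 tissue exceeds every other by 5-fold in both strains, 157 of 457 arms qualified (34.4%) and none of the members did. For mir-182 the highest tissue exceeded the next by 1.24-fold in BN-Lx and 2.85-fold in SHR.

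The brains of the 2 rats differed more in this cluster than in nearly any other miRNA. mir-182 was 21.2-fold higher in the BN-Lx brain than in the SHR brain (95% counting interval 14.4 to 32.4), mir-183-5p 22.5-fold (12.4 to 45.6) and mir-183-3p 17.9-fold (4.67 to 152). The mir-96 arms had 13 and 6 reads in the BN-Lx brain and 0 and 0 in the SHR brain. These intervals cover counting error only and not the spread between animals. Of the 401 arms with at least 20 reads over the 2 brains, 11 (2.74%) were at least 10-fold higher in BN-Lx, none was 10-fold higher in SHR, and the median ratio was 1.16. The 3 member arms ranked 4, 5 and 7 among the 11.

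The other 8 arms beyond 10-fold included 5 arms of the mir-200 family, epithelial miRNAs known for keeping cells in the epithelial state. mir-200b-3p had 455 reads in the BN-Lx brain and 4 in the SHR brain, mir-200a-3p had 1531 and 35, and mir-200c-3p had 44 and 2. mir-429-5p (112 reads) and mir-200b-5p (53 reads) were read in the BN-Lx brain and listed at 0 in the SHR brain. The remaining 3, named because they passed the same limit, were mir-212-5p (165 and 7 reads), mir-21-5p (4193 and 285) and let-7d-3p (636 and 44). Thus 8 of the 11 arms belonged to the mir-183 cluster or the mir-200 family.

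**Figure D2:**
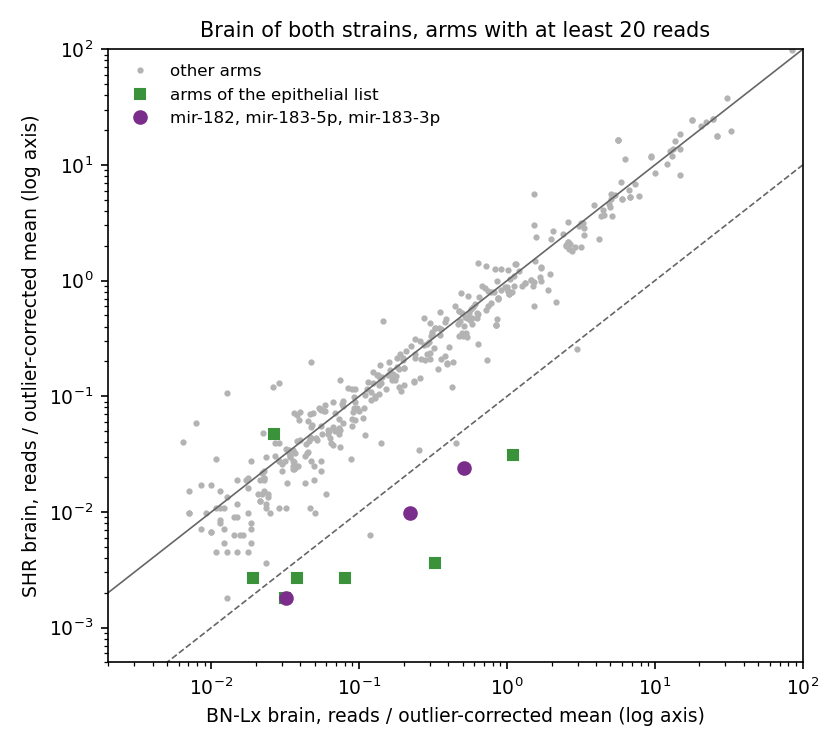
Level of each miRNA arm in the BN-Lx brain (x axis) against the SHR brain (y axis), as multiples of the outlier-corrected mean on log axes, with arms at 0 drawn at the limit of 3 reads. Arms of the cluster and of the mir-200 family lie far below the diagonal, with mir-182 at 0.512 and 0.0242, mir-205-5p of the epithelial list lies above it at 0.0263 and 0.0475, and the bulk of the 401 arms lies along it.

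Lists of miRNAs that mark other cell types were summed in the same brains. All 6 hairpins of the epithelial list (mir-141, mir-200a, mir-200b, mir-200c, mir-429 and mir-205) had reads, together 1.61 times the ocm in the brain of BN-Lx against 0.0842 in that of SHR, a 19.1-fold difference. mir-205 went the other way, at 0.0263 in BN-Lx and 0.0475 in SHR, and the other 5 hairpins summed to 1.58 and 0.0367, a 43.2-fold difference. The exocrine pancreas list was at 20 reads and 1 read (15.9-fold), carried by mir-217-5p. The sums of the other lists were close between the brains: choroid plexus, ciliated and pigment epithelium 8.90 and 7.06, pituitary and neuroendocrine cells 3.81 and 2.73 with mir-7b at 0, and oligodendrocytes 11.2 and 10.3. Within the first of these, the 2 most read arms went opposite ways for BN-Lx and SHR, mir-204-3p at 7.86 and 5.44 and mir-34c-5p at 0.718 and 1.35. The neuronal list was lower in BN-Lx (68.1 against 101), and the lists of blood cells (7.49 and 9.45), hepatocytes (0.334 and 0.283), muscle (0.0868 and 0.0618) and proximal tubule (1.85 and 1.15) differed by 1.61-fold or less. Within the muscle list, mir-1-3p was 4.37-fold higher in the BN-Lx brain at low levels (0.00782 and 0.00179). Within the proximal tubule list, whose sum is mostly mir-192-5p, mir-194-1-5p was 4.14-fold and mir-194-2-5p 3.06-fold higher in the BN-Lx brain. The part of epithelial or other cells in the brain difference of the cluster was not tested.

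In kidney and spleen the strains stood the other way round. mir-182 was 1.56-fold higher in SHR than in BN-Lx kidney (1.39 to 1.76), 2.97-fold higher in SHR spleen (1.93 to 4.64) and 1.96-fold higher in SHR liver of the six-tissue set (1.46 to 2.64). mir-183-5p was 2.27-fold higher in SHR kidney (1.71 to 3.03) but 1.56-fold higher in BN-Lx liver (1.05 to 2.35). By the paper's methods this SHR liver library had more PCR cycles than the BN-Lx one, so preparation and strain cannot be told apart there. mir-183-3p went against its own 5p arm in kidney, where it was 4.37-fold higher in BN-Lx (1.72 to 13.2). The epithelial list summed to 7.18 times the ocm in the BN-Lx kidney against 24.2 in the SHR kidney, 3.37-fold higher in SHR, and 0.651 and 0.677 in these livers. In spleen it was 2.06-fold higher in SHR (0.250 and 0.516), and the exocrine pancreas list was 2.17-fold higher there (106 and 148 reads). The kidney libraries also differed in other arms, with 9 of 305 arms at least 10-fold higher in BN-Lx and 6 at least 10-fold higher in SHR. The 9 included mir-202-5p, mir-742-3p, mir-743b-3p and mir-463-5p, known from testis, and mir-34b-5p and mir-34c-5p, known from ciliated and germ cells. The rest of the 9 were sblock27632-3p, mir-322-3p and mir-20b-5p, and the 6 higher in SHR are not named here. The choroid plexus, ciliated and pigment epithelium list was 2.49 times the ocm in the kidney of BN-Lx against 0.987 in that of SHR. Its 2 most read arms went opposite ways there. For BN-Lx and SHR, mir-34c-5p was at 1.68 and 0.152 and mir-204-3p at 0.586 and 0.809. The part of these cell types in the members' differences in kidney and spleen was not tested.

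**Figure D3:**
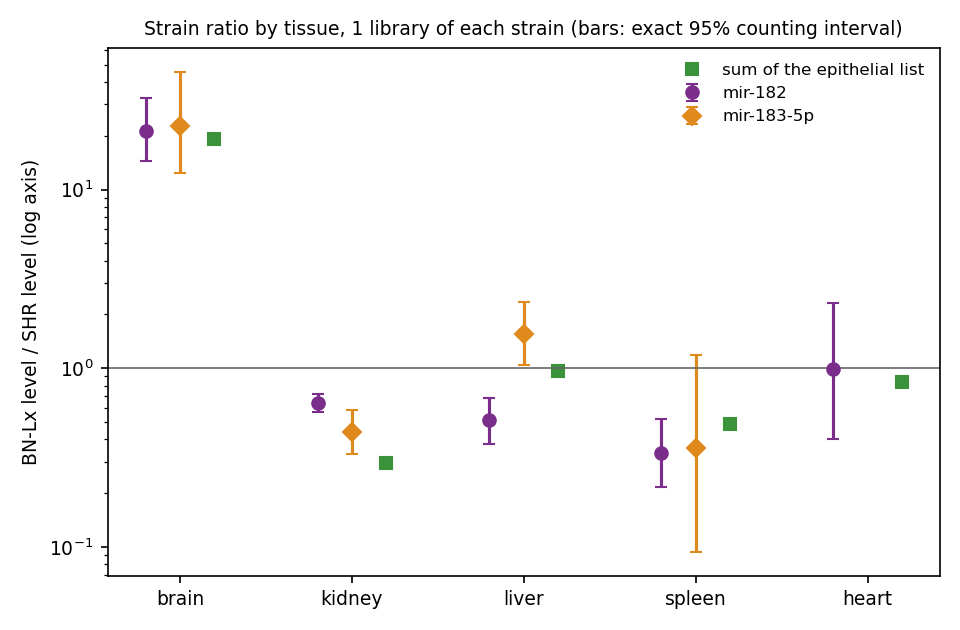
BN-Lx over SHR ratio of mir-182, mir-183-5p and the sum of the epithelial list in brain, kidney, liver, spleen and heart of the six-tissue set. The axis is logarithmic, and bars are exact 95% counting intervals of the mir-182 and mir-183-5p ratios. No mir-183-5p ratio is drawn for heart, where it had 0 reads in SHR. The brain ratios of 21.2 for mir-182 and 22.5 for mir-183-5p stand apart from the kidney, liver and spleen ratios of mir-182, which lie below 1.

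None of these strain differences was called across all arms. Over the 6 tissues the SHR minus BN-Lx difference was 0.01 ± 0.66 for mir-182 and -0.73 ± 0.83 for mir-183-5p on the log2 scale (edgeR adjusted p 0.996 for both), and mir-183-3p was at -2.46 ± 0.84 (unadjusted edgeR p 0.0152, adjusted p 0.996). edgeR called 0% of the 457 arms in this comparison, with 8 arms at an unadjusted p under 0.05, and DESeq2 called 0 with 18 such arms. Leaving out both brains put mir-182 at 0.75 ± 0.34 (unadjusted edgeR p 0.0544, adjusted p 0.882) and mir-183-5p at 0.22, a change of sign for the latter.

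The brain difference was then set against that of the other tissues in an edgeR fit of all 16 libraries, in which the spread came from the livers alone and each lone library was assumed to vary like them. For mir-182 the strain difference in brain lay -4.69 ± 1.45 from the mean of the other 5 tissues (unadjusted edgeR p 0.0110, adjusted p close to 1), and the alternatives gave -5.90 to -4.43. No arm in any tissue was called there (0% of 3000 tests), with 46 at an unadjusted p under 0.05. Against kidney alone the difference was -5.07 ± 1.74 for mir-182 (unadjusted edgeR p 0.0184, adjusted p 0.724) and -5.68 ± 1.72 for mir-183-5p (unadjusted edgeR p 0.00993, adjusted p 0.709), with 0% of 500 arms called and 20 at an unadjusted p under 0.05. mir-183-3p, also higher in BN-Lx kidney, was at -1.92 ± 1.81 in the same comparison (unadjusted edgeR p 0.317). Against the mean of kidney, liver and spleen, a comparison chosen after the data were seen as was that with kidney, mir-183-5p was at -5.01 ± 1.43 (unadjusted edgeR p 0.00739, adjusted p 0.661), where 0% of arms were called and 16 had an unadjusted p under 0.05. In the comparison with kidney mir-96-5p was at -12.3 and was not called, a value that rests on 0 reads in the SHR brain and the BN-Lx kidney. The brain difference of mir-182 and mir-183-5p thus rests on 1 library per strain and did not pass the adjustment over all arms.

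The 6 livers were the only organ with several rats of each strain. mir-182 stood at 0.177, 0.661 and 0.529 times the ocm in the BN-Lx livers (69, 613 and 431 reads) and at 0.347, 0.258 and 0.175 in the SHR livers (145, 562 and 389 reads). The strain means were 0.456 ± 0.250 and 0.260 ± 0.0861 (SD, n = 3), the ranges overlapped, and the exact two-sided permutation p was 0.3. The BN-Lx liver of the six-tissue set was among the lowest of the 6, whereas the further BN-Lx livers were the highest. mir-183-5p stood at 0.165, 0.0604 and 0.0896 in the BN-Lx livers against 0.105, 0.0440 and 0.0193 in the SHR livers, with overlapping ranges and an exact permutation p of 0.3. With the replicate number taken as a pairing, which the labels do not state, BN-Lx was higher in all 3 pairs for mir-183-5p. The difference with the replicate block was -1.10 ± 0.44 (unadjusted edgeR p 0.0476, adjusted p 0.539). Number 1 is the six-tissue set, so the block also takes up the difference between the sets.

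mir-183-3p was the member arm whose livers did not overlap. It had 8, 17 and 21 reads in BN-Lx (0.0206, 0.0183 and 0.0258 times the ocm) and 3, 7 and 20 reads in SHR (0.00718, 0.00321 and 0.00899). The exact permutation p was 0.1, the smallest that 3 rats against 3 allow. Of the 271 arms tested, 9 (3.32%) had every BN-Lx liver above every SHR liver. In edgeR the SHR minus BN-Lx difference was -1.69 ± 0.62 for mir-183-3p (unadjusted p 0.0271, adjusted p 0.995), -0.86 ± 0.56 for mir-182 and -1.02 ± 0.65 for mir-183-5p (edgeR adjusted p 0.995 for both). It called 0% of arms, with 6 at an unadjusted p under 0.05, and DESeq2 called 0 with 9 such arms. In the 4 further livers alone mir-182 was at -1.32 ± 0.36 (unadjusted edgeR p 0.0210, adjusted p 0.301), against -0.86 in all 6.

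**Figure D4:**
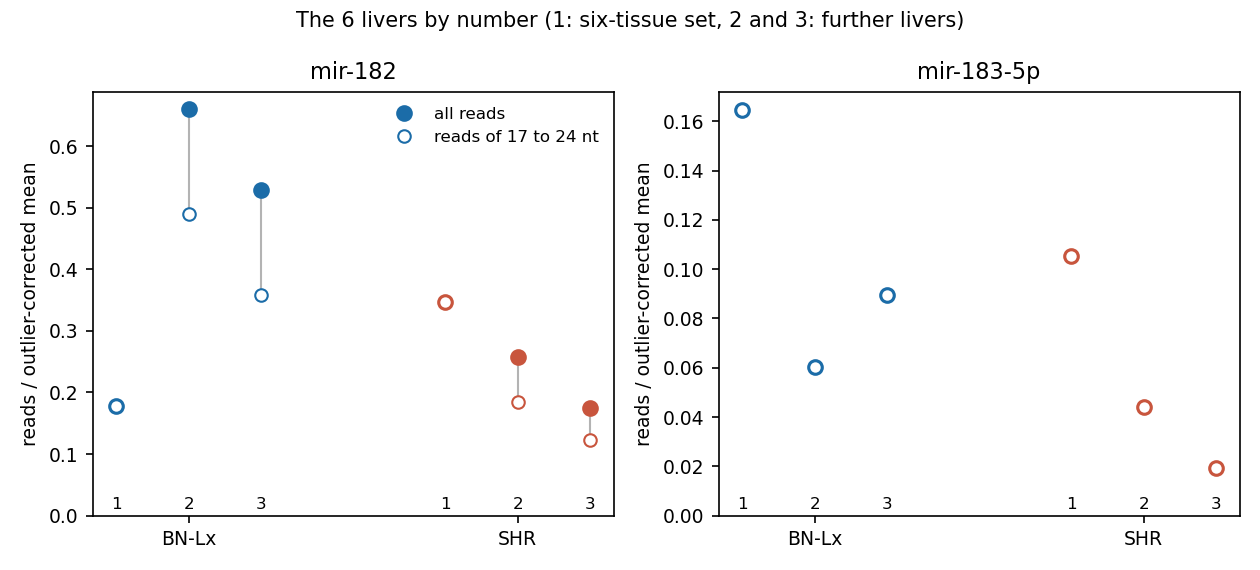
Levels of mir-182 and mir-183-5p in the 3 livers of each strain, as multiples of the outlier-corrected mean, for all reads and for reads of 17 to 24 nt. The BN-Lx and SHR points overlap for both arms.

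The proportion of the members was not fixed. mir-182 exceeded mir-183-5p by 2.31 reads to 1 in the BN-Lx brain (2.02 to 2.64) and by 2.45 to 1 in the SHR brain (1.18 to 5.48), although their levels there differed more than 20-fold. With mir-182 reads at the annotated start alone, it was 2.26 in the BN-Lx and 1.09 in the SHR brain. The ratio was 6.19 (4.80 to 8.08) in the BN-Lx and 4.26 (3.64 to 5.02) in the SHR kidney, and 6.80 and 7.22 in the spleens. In liver it was 1.08 (0.756 to 1.54) in the BN-Lx and 3.30 (2.34 to 4.73) in the SHR liver of the six-tissue set. The BN-Lx liver of that set had mir-182 at 47.3% of the cluster's reads (38.9% to 55.7%). The ratio ran from 5.85 to 10.9 in the further livers. With mir-182 reads of up to 24 nt alone it was 8.13 and 4.00 in the further BN-Lx and 4.21 and 6.33 in the further SHR livers. Of these, 4.00 and 4.21 lie within the interval of the SHR liver of the six-tissue set. The further livers therefore all lay above both livers of the six-tissue set, and set and animal cannot be told apart.

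The arms of mir-183 were also used in different proportion. Over all libraries 13.5% of its reads lay on the 3p arm (exact Clopper-Pearson interval 11.6% to 15.6%). In the kidneys the share was 23.9% in BN-Lx (15.6% to 33.9%) and 3.08% in SHR (1.14% to 6.58%), intervals that do not overlap. The brains were at 12.6% (9.34% to 16.5%) in BN-Lx and, on 2 of 13 reads, at 15.4% (1.92% to 45.4%) in SHR, and the livers ran from 11.1% to 23.3% in BN-Lx and from 6.38% to 31.7% in SHR. Reads are not independent molecules, so these intervals cover counting error only.

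Over the 12 six-tissue libraries, the arms whose log2 level followed mir-182 most closely were mir-200a-3p (Pearson r 0.93), mir-200b-3p (0.91), mir-203-as-3p (0.83), mir-200c-3p (0.83) and mir-429-5p (0.82), among 454 arms of other hairpins. mir-182 and mir-183-5p were correlated at 0.89. For mir-183-5p the closest were mir-200b-3p (0.84), mir-194-1-5p (0.83), mir-194-2-5p (0.83), mir-200b-5p (0.80) and mir-200a-3p (0.78). The points share libraries, depth and, in pairs, the rat, and mir-203-as-3p had 65 reads in all, so the coefficients are a description. mir-200a-3p was at 2.98 and 14.5 times the ocm in the BN-Lx and SHR kidney and at 1.09 and 0.0314 in the brains, the same order of brains as mir-182 and a wider gap between the kidneys.

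The 5′ end of mir-182 was sharply set and that of mir-183-5p was not. Of all mir-182 reads, 96.7% began at position 35 of the hairpin, the annotated start. mir-183-5p began at its annotated position 27 in 66.6% of reads and 1 base later, at position 28, in 33.3% (30.3% to 36.3%). The commonest read of the later form is shown because the shift moves the seed.
mir-183-5p from position 27: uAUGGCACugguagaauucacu
mir-183-5p from position 28: aUGGCACUgguagaauucacug
The capitals again mark bases 2 to 8. The first was read 278 times and the second 164 times, and the shifted seed is that which mir-96-5p would have if it too began 1 base later. The share from position 28 was 38.5% of 312 reads in the BN-Lx brain and 10 of 11 reads in the SHR brain, 44.3% and 36.5% in the BN-Lx and SHR kidney, 17.2% and 27.3% in the BN-Lx and SHR liver of the six-tissue set, and 23.1% in the further livers.

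Reads of mir-182 that began after position 35, up to position 41, made up 140 of 2327 reads in the six-tissue set and 1 of 1995 in the further livers. Within the six-tissue set they were spread more evenly over the libraries than the rest of the arm. The BN-Lx brain had 16 such reads beside 704 at position 35, and the SHR brain had 15 beside 12. In heart they were the larger part, 8 of 10 reads in BN-Lx and 11 of 16 in SHR, and both testis reads were of this kind. Kidney had 10 of 433 and 22 of 806. Reads at position 35 alone gave a BN-Lx over SHR ratio in brain of 46.6 in place of 21.2, and kidney above heart by 6.83 on the log2 scale in place of 4.96 (edgeR adjusted p 0.00494). The low levels of mir-182 in heart, testis and the SHR brain were thus levels of reads that mostly lack the annotated start, and the origin of these reads was not tested.

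The length of mir-182 reads differed between the sets of libraries, and so did that of all reads. Over all arms a library of the six-tissue set held 0 to 4 reads of 25 nt or more, and each further liver held 3453 to 5340, so the lack of such reads was a feature of the whole six-tissue set. In the six-tissue set 36.5% of its reads were 23 nt and 24.5% were 24 nt long, and none reached 25 nt. In the further livers 26.3% were 25 nt, the annotated length, and 28.7% were 25 nt or longer. Of the 230 arms with at least 100 reads in the further livers, mir-182 had the 6th highest share of reads of 25 nt or more, and the median share was 0.0184%. mir-183-5p had no read over 24 nt in either set. Counting reads of 17 to 24 nt only left mir-182 at 0.491 and 0.358 in the further BN-Lx livers and at 0.185 and 0.122 in the further SHR livers. The difference in read length was between the sets and was present in both strains.

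**Figure D5:**
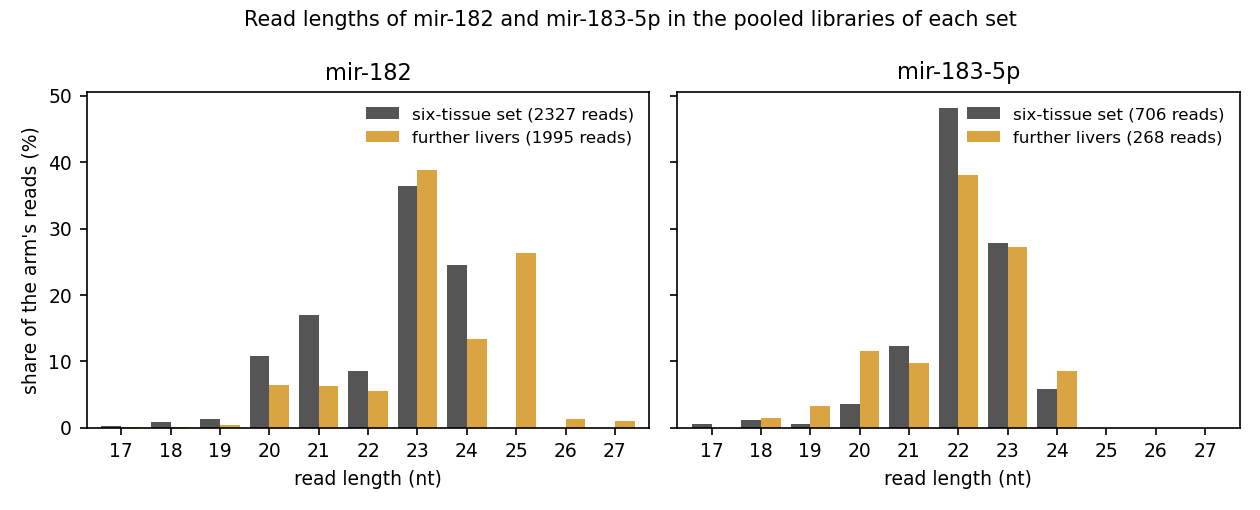
Share of the reads of mir-182 and of mir-183-5p at each length from 17 to 27 nt, in the pooled six-tissue set and the pooled further livers. The six-tissue set has no mir-182 read of 25 nt or longer, whereas 26.3% of mir-182 reads of the further livers are 25 nt, and mir-183-5p ends at 24 nt in both.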

How the data were processed

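Small RNA of the 16 libraries was measured by SOLiD sequencing. The paper reports more PCR cycles for both testis libraries and the liver of the SHR rat than for the others. The authors trimmed the linker, mapped with SHRiMP, kept perfect matches to miRNA hairpins (RGSC3.4, miRBase) and deposited, per library, an estimated count per pair of end positions along every hairpin. These are estimated counts because the authors divided reads that match several hairpins evenly, and no normalization was applied. Here the counts were summed per arm, a read centred over 20 nt away from its named arm being moved to the opposite arm, and divided by the outlier-corrected mean as in the study's methods. Members, marker lists and comparisons were chosen with earlier results of these data known.

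Summed reads were rounded to whole numbers and tested with edgeR 4.0.16 (quasi-likelihood, TMM, filterByExpr, Benjamini-Hochberg at 0.05, two-sided; R 4.3.3), SE being the fold change over the square root of F. DESeq2 1.42.0 was an alternative. Fits were tested on simulated data. Level ratios carry exact binomial and shares exact Clopper-Pearson intervals (95%). Tables were made with Python 3.11.15, pandas 2.3.3 and scipy 1.17.1, and sequences came from RefSeq GRCr8. Named beside the members were the 2 most read arms of a marker list where the text turns on them, the 5 arms most correlated with mir-182 and mir-183-5p, and arms of equal seed. Arms beyond 10-fold in brain, and those beyond 10-fold higher in the BN-Lx kidney, were chosen after their values were seen. A SHR and a BN-Lx liver of the same number deviated together from their strain means (correlations 0.668, 0.570 and 0.300 over 271 arms), and the replicate number was taken as a pairing. Livers of unlike number were at -0.581 to 0.205, the highest being BN-Lx liver 3 with SHR liver 2. These correlations cannot show a pairing, because number 1 is the six-tissue set and each mean was that of the 3 livers of a strain. The labels do not state a pairing. Numbers 2 and 3 are in the labels, and 1 stands for the six-tissue set.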

Additional observations from a re-analysis of the deposited data

Results flagged for a closer look

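The strain difference of mir-182 had opposite signs in different tissues of the same 2 rats: on the log2 scale, SHR minus BN-Lx was -4.40 in brain and 0.64 in kidney. The same held for mir-183-5p, with -4.49 in brain and 1.18 in kidney. With 1 library per tissue and strain, each direction is that of a single pair of animals. The difference between brain and kidney was -5.07 ± 1.74 for mir-182 and -5.68 ± 1.72 for mir-183-5p in the edgeR fit whose spread came from the livers, and neither passed the adjustment over all arms (edgeR adjusted p 0.724 and 0.709).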

How the results depend on the processing

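The results were recomputed with other normalizations and filters, DESeq2, 1 library left out at a time and, chosen after the data were seen, with reads at the commonest start, reads of 17 to 24 nt and without the brains or the testes. Counting only the commonest start of each arm moved the BN-Lx over SHR ratio in brain to 46.6 for mir-182 and 152 for mir-183-5p, the latter with 1 read in SHR. The strain difference over 6 tissues changed sign for mir-182 at the commonest start (-0.021) and ran from -0.34 to 0.75 over the fits without 1 library. For mir-183-5p it was 0.22 without both brains and ran from -1.54 to 0.22. Kidney against the other tissues ran from 2.01 to 4.75 for mir-183-5p without 1 library, the lowest being without the SHR kidney. For mir-182 testis below liver was not called with another scaling (edgeR adjusted p up to 0.167), and mir-183-3p lost its call over the tissues at the commonest start (adjusted p 0.0849). The call of spleen below liver for mir-183-5p was lost in 4 of the alternatives (adjusted p 0.0519 to 0.0581). With the replicate block in liver, mir-182 was at -0.71, mir-183-5p at -1.10 and mir-183-3p at -1.80 (edgeR adjusted p 0.706, 0.539 and 0.539), 0 arms were called with 22 at an unadjusted p under 0.05, and no call changed. All but 2 of the numbers of calls over all arms stayed within 1.5 times the main count in these fits. Depth limits mir-96 throughout, all members in testis, and mir-183 in heart.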
